A study of Penicillium oxalicum with 12 samples.

Results

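In *Penicillium oxalicum*, 67 of the 9909 genes listed in at least 1 RNA-seq library (0.676%) were raised in cellulose medium in the libraries labelled as deleted for *Podot1*, while the group means of the 2 strains in glucose medium stayed within 2-fold of each other. The genes were chosen by their FPKM, a read count scaled for transcript length and for library depth, with 1 FPKM added to each value before any ratio. A gene belonged to the group when replicates 1 and 3 labelled Δ*Podot1* in cellulose each reached 5 FPKM and each stood at least 3-fold above the highest of the 3 WT cellulose libraries. The ratio of the Δ*Podot1* mean to the WT mean in glucose also had to lie within 2-fold of equality, and the WT ratio of cellulose to glucose within 8-fold. Replicate 2 labelled Δ*Podot1* in cellulose was not used. These values chose the genes, so the contrasts that they enter are given below as descriptions and not as tests.

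The 12 libraries fall into 4 groups of 3 replicates. Δ*Podot1*, in which a hygromycin resistance cassette stands in place of the *Podot1* coding region, and its parent 114-2 (WT) were each grown in 2 media. Washed mycelia from a glucose preculture were moved either to a medium with cellulose (1%) and wheat bran (1%) or to a medium with 2% glucose, and were collected 24 h later. The number of independent Δ*Podot1* transformants behind the 3 replicates is not given in the sources used here. Total estimated counts were 4607764 to 7081689 per library.

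Dot1 is the methyltransferase that places methyl groups on lysine 79 of histone H3 (H3K79), a mark on the body of nucleosomes in transcribed genes, and in yeast it is known for its part in silencing near telomeres. *P. oxalicum* is a filamentous fungus that secretes cellulases and hemicellulases when it grows on plant cell wall material. On glucose these enzymes are held low by carbon catabolite repression, whereas cellulose with wheat bran induces them through soluble sugars that are released from the polymer and taken up by membrane transporters.

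Not all libraries matched their labels. *Podot1* (PDE_07484) had 33.4, 58.4 and 0 FPKM in replicates 1, 2 and 3 labelled Δ*Podot1* in cellulose, against 36.4, 28.8 and 28.2 FPKM in WT in cellulose. In glucose it had 0, 0.10 and 0.19 FPKM in Δ*Podot1*, against 31.7, 25.8 and 29.0 FPKM in WT. Replicates 1 and 2 labelled Δ*Podot1* in cellulose therefore carried *Podot1* reads within or above the WT range (341 and 613 estimated counts), and only replicate 3 lacked them. The summed FPKM of 10 secreted glycoside hydrolase genes, which reports the medium, was 13287, 218 and 16076 in the cellulose libraries labelled Δ*Podot1*, against 34018 to 40652 in WT in cellulose. It was 151 to 167 in Δ*Podot1* in glucose, against 124 to 173 in WT in glucose, so replicate 2 stood at the level of a glucose library. Every value is therefore given by replicate below, and the cellulose group is called "labelled Δ*Podot1*" throughout.

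Taken over the 67 genes, the libraries labelled Δ*Podot1* in cellulose had a median of 53.8, 23.7 and 63.1 FPKM in replicates 1, 2 and 3, against 8.29, 6.77 and 7.34 FPKM in WT in cellulose. In glucose the medians were 12.5, 14.7 and 10.3 FPKM in Δ*Podot1*, against 7.53, 11.2 and 10.5 FPKM in WT. The median over all genes lay between 18.6 and 25.5 FPKM in the 12 libraries, so the group sat below the typical gene in WT and above it in replicates 1 and 3. The mean of replicates 1 and 3 was 3.59 to 41.3 times the WT cellulose mean on the FPKM + 1 scale, with a median of 6.15. In mycelia, more hyphae of a kind and more RNA per hypha cannot be told apart.

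**Figure D1:**
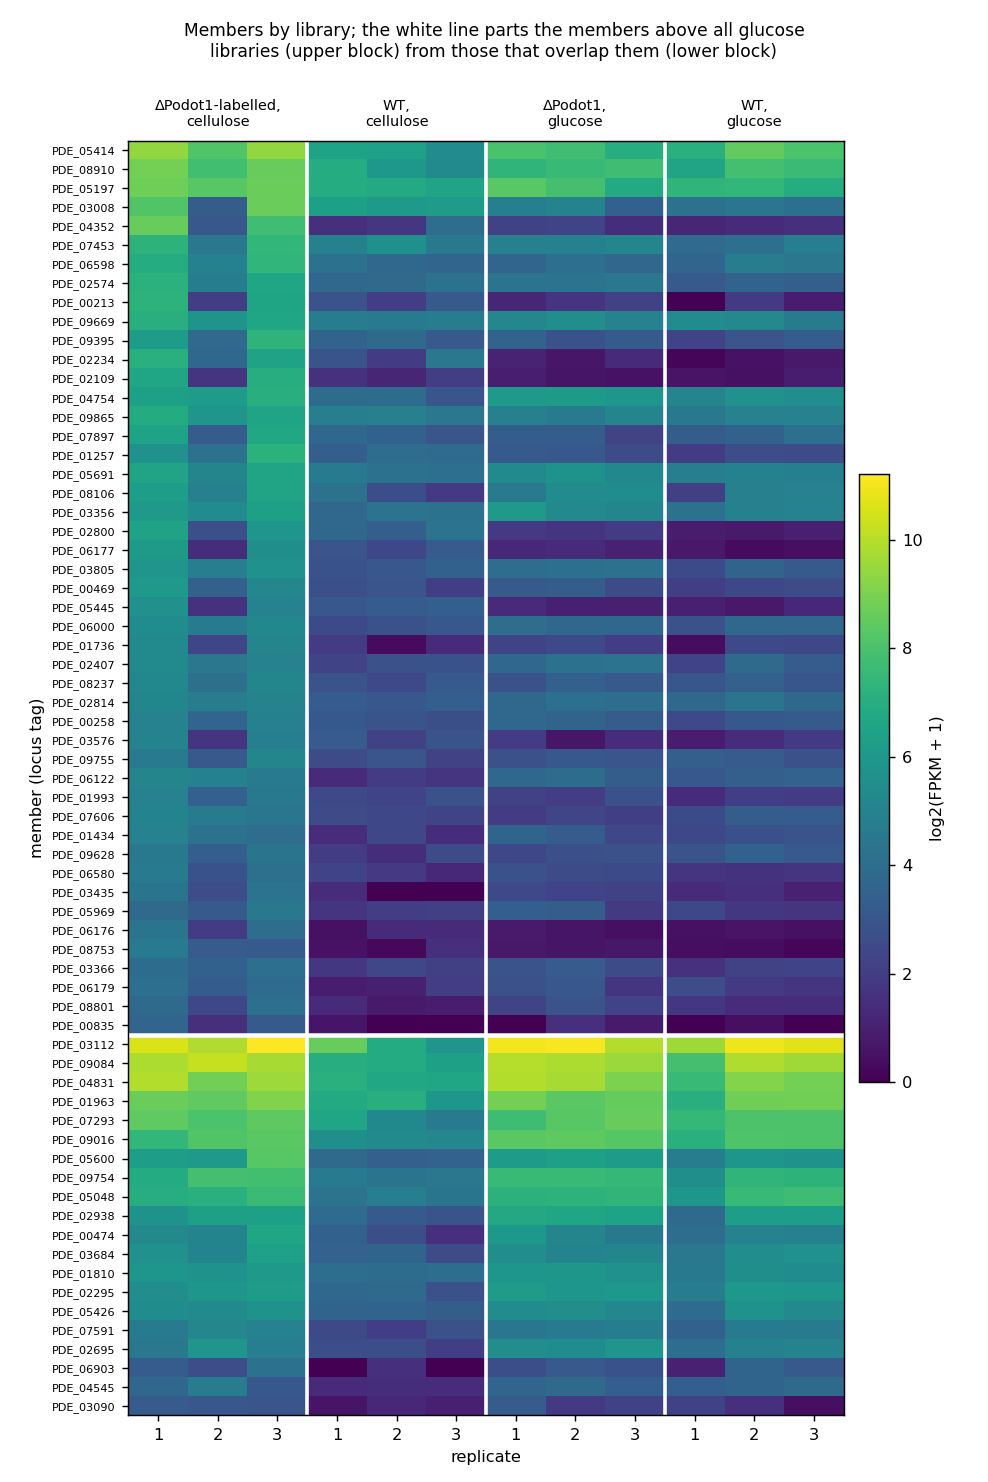
Each line is 1 of the 67 genes and each column 1 of the 12 libraries, with replicates 1 to 3 of the cellulose libraries labelled Δ*Podot1*, WT in cellulose, Δ*Podot1* in glucose and WT in glucose, and the colour gives log2(FPKM + 1). The upper block holds 47 genes that are brighter in replicates 1 and 3 labelled Δ*Podot1* than in any WT cellulose or glucose library, with replicate 2 darker than both in 43. The lower block holds 20 genes in which replicates 1 and 3 overlap the glucose range, and in 17 of them WT in cellulose is darker than every WT glucose library.

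The 2 libraries that chose the genes gave similar levels. *Podot1* reads were present in replicate 1 and absent from replicate 3. Replicate 1 was the higher in 38 genes and replicate 3 in 29, and the 2 values lay within 2-fold of each other in 60 of 67, with a median ratio of 1.36 and a largest of 4.15. The largest gap was in PDE_05600, which has no function text, with 76.4 FPKM in replicate 1 and 317 FPKM in replicate 3. Across the 67 genes the Pearson correlation of log2(FPKM + 1) between these replicates was 0.94. It was 0.90 across all genes that averaged 1 FPKM or more, so the similarity was not particular to the 67. These are correlations across genes, which are not independent replicates, and the 67 were chosen for being high in both libraries.

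The fold and the 5 FPKM conditions together held for 144 genes, of which 72 left by the glucose condition, 71 of them because the ratio of Δ*Podot1* to WT in glucose was too high, and 5 more left by the WT medium condition. Nearest inside the 3-fold limit were PDE_02800, PDE_05445 and PDE_03366 with a ratio of the lower replicate to the highest WT library of 3.002, 3.03 and 3.03, and nearest outside were PDE_00227, PDE_02639 and PDE_02077 with 2.96, 2.95 and 2.94. The lowest FPKM of a gene kept was 6.72 (PDE_03090), and the nearest left out by that condition had 4.32 (PDE_03494). In glucose, the ratio of Δ*Podot1* to WT was 1.99 in PDE_03435 and 0.53 in PDE_07606 just inside, and 2.06 in PDE_02763 and 0.17 in PDE_05404 just outside. In WT, the ratio of cellulose to glucose was 7.80 in PDE_02234 and 0.128 in PDE_03112 just inside, and 8.66 in PDE_10000 and 0.102 in PDE_02785 just outside.

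The rule did not compare replicates 1 and 3 labelled Δ*Podot1* in cellulose with glucose directly. It did set them above WT in cellulose and bound the WT ratio of cellulose to glucose, so it bears on the shares given here. Relative to glucose, the 67 genes divided into a larger and a smaller pattern. In 47 genes, replicates 1 and 3 labelled Δ*Podot1* in cellulose were both above all 6 glucose libraries (70.1%, against 24.7% of all genes). The mean of the 2 replicates was then 1.97 to 91.5 times the mean of the glucose libraries (median 4.27), and in 22 of the 47 it was at least 5 times. In WT the ratio of cellulose to glucose had a median of 0.93 over these genes.

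In the other 20 genes the 2 replicates overlapped the range of the glucose libraries, and no gene lay below it. Here the mean of the 2 replicates was 0.657 to 3.21 times the glucose mean (median 1.27), whereas WT in cellulose was low, with a median ratio of cellulose to glucose of 0.231. WT cellulose libraries were all below all WT glucose libraries in 17 of the 20. For these genes "raised" describes the level relative to WT in cellulose, not relative to glucose. Over all 67 genes, WT in cellulose was below every WT glucose library in 25 (37.3%, against 23.1% of all genes), above every one in 11 (16.4%, against 31.4%) and overlapped them in 31. The rule chose genes with low values of WT in cellulose and bounded this ratio, so these shares describe the choice.

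**Figure D2:**
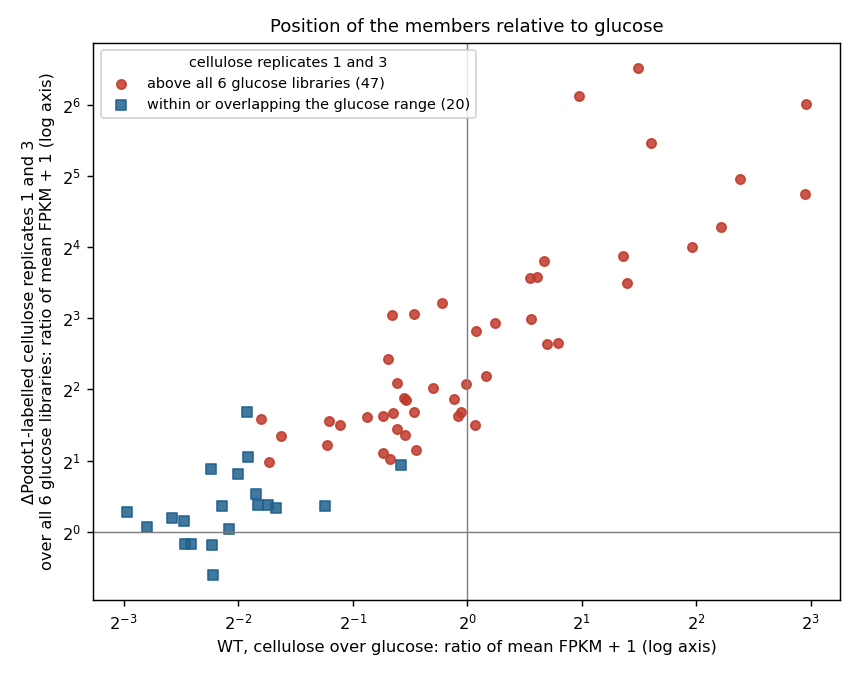
For each of the 67 genes, the horizontal axis gives the ratio of mean FPKM + 1 in WT in cellulose to WT in glucose, and the vertical axis the ratio of the mean of replicates 1 and 3 labelled Δ*Podot1* in cellulose to the mean of the 6 glucose libraries (both log axes). The 20 genes that overlapped glucose (squares) lie at the lower left, with a median WT ratio of 0.231, and the 47 above glucose (circles) reach a vertical ratio of 91.5.

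Sugar uptake was represented by genes of the 47. PDE_09395, whose best protein match is a cellodextrin transporter (a protein that imports the short glucose chains released from cellulose), had 71.6, 13.4 and 158 FPKM in replicates 1, 2 and 3 labelled Δ*Podot1* in cellulose, against 10.7, 13.7 and 7.86 FPKM in WT. Its glucose levels were 10.7, 6.18 and 7.90 FPKM in Δ*Podot1*, against 3.77, 6.73 and 8.57 FPKM in WT. Replicates 1 and 3 stood alone, and replicate 2 lay within the WT range. The KEGG hit of this gene is guanine deaminase, which its transporter GO term does not share.

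PDE_02574, annotated as a sugar:H+ symporter that couples sugar import to the proton gradient, had 143, 26.2 and 98.8 FPKM in the cellulose libraries labelled Δ*Podot1*, against 12.3, 13.8 and 16.9 FPKM in WT. On glucose it had 18.3, 18.5 and 20.8 FPKM in Δ*Podot1*, against 7.73, 10.96 and 9.59 FPKM in WT. The libraries labelled Δ*Podot1* did not overlap those of WT in either medium, and the glucose ratio stayed inside the 2-fold limit. PDE_02109, a membrane transporter by its GO term with the same KEGG hit of guanine deaminase, was high in replicates 1 and 3 only. It had 99.4, 2.31 and 124 FPKM in the cellulose libraries labelled Δ*Podot1*, against 2.05, 1.29 and 3.06 FPKM in WT, and at most 0.91 FPKM in any glucose library. It was thus almost silent in 10 of the 12 libraries.

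A different course was seen for the nucleotide sugar transporter. PDE_02295 is annotated as a GDP-mannose transporter, which brings the mannose donor for protein mannosylation into the Golgi. It had 44.3, 58.5 and 70.3 FPKM in the cellulose libraries labelled Δ*Podot1*, against 12.8, 13.5 and 5.87 FPKM in WT. The glucose libraries had 56.3 to 70.1 FPKM in Δ*Podot1*, against 25.5, 61.6 and 58.4 FPKM in WT. The level in the cellulose libraries labelled Δ*Podot1* was thus that of glucose, and WT in cellulose was the low group.

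Among enzymes acting on polysaccharides, PDE_07897, an α-L-arabinofuranosidase that removes arabinose side chains from hemicellulose, had 89.9, 8.66 and 104 FPKM in the cellulose libraries labelled Δ*Podot1*, against 12.97, 10.2 and 6.84 FPKM in WT. In glucose it had 8.95, 8.91 and 3.96 FPKM in Δ*Podot1*, against 8.80, 10.3 and 16.2 FPKM in WT. It was high only in replicates 1 and 3 and reached at most 16.2 FPKM in the other 10 libraries. None of the 10 secreted glycoside hydrolase genes that served as the check of the medium belonged to the group.

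The remaining polysaccharide enzymes belonged to the 20. PDE_03112 is a β-1,3-glucanase (exo-acting by its best match, endo-acting by KEGG), of a family that cuts the glucan of the fungal wall. Its levels were the highest of the group in replicates 1 and 3, with 1504, 928 and 2371 FPKM in the cellulose libraries labelled Δ*Podot1*, against 387, 119 and 56.7 FPKM in WT. Its glucose levels were 970 to 2199 FPKM in Δ*Podot1*, against 788, 1960 and 1669 FPKM in WT, and WT in cellulose was the group that stood apart. PDE_09016, whose best match is a cellulose synthase (such enzymes join β-linked glucose chains at membranes), had 172, 289 and 321 FPKM in the cellulose libraries labelled Δ*Podot1*, against 47.1, 40.3 and 35.2 FPKM in WT. On glucose it had 309 to 342 FPKM in Δ*Podot1*, against 140, 277 and 273 FPKM in WT.

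One annotated transcription factor was present. PDE_03008 has a KEGG hit to FlbD, a Myb-like DNA-binding protein that in *Aspergillus nidulans* acts upstream of conidiation. It had 290, 9.03 and 396 FPKM in the cellulose libraries labelled Δ*Podot1*, against 82.0, 65.4 and 71.3 FPKM in WT. The glucose libraries had 28.0, 31.4 and 10.3 FPKM in Δ*Podot1*, against 17.0, 20.01 and 16.7 FPKM in WT. WT itself was higher in cellulose than in glucose in all libraries, replicates 1 and 3 were above WT, and replicate 2 was the lowest of all 12 libraries.

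PDE_04352 and PDE_02109 stood furthest above WT in cellulose, in an order that depended on the measure. The GO term of PDE_04352 is peptidase activity and its KEGG hit is the splicing helicase BRR2, so its function is uncertain. It had 391.6, 7.29 and 218 FPKM in the cellulose libraries labelled Δ*Podot1*, against 1.87, 2.44 and 14.9 FPKM in WT. In glucose it had 1.80 to 3.80 FPKM in Δ*Podot1*, against 1.32 to 1.96 FPKM in WT. On the FPKM + 1 scale replicates 1 and 3 averaged 41.3 times the WT mean, and the lower of them was 13.8 times WT replicate 3, the highest of the WT libraries. For PDE_02109 these ratios were 36.0 and 24.7, and the edgeR log2 fold change was 4.97 for PDE_04352 and 5.10 for PDE_02109.

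Genes of protein synthesis and of the mitochondria were found in both patterns. PDE_01963, the RNA helicase eIF4A that unwinds mRNA leaders for the ribosome, had 400, 357 and 549 FPKM in the cellulose libraries labelled Δ*Podot1*, against 115, 131 and 61.1 FPKM in WT. Its glucose levels were 327 to 460 FPKM in Δ*Podot1*, against 135, 442 and 453 FPKM in WT. WT replicate 1 in glucose was close to the highest WT cellulose library here.

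The ribosomal protein L34 gene PDE_03684 had 49.8, 31.9 and 83.8 FPKM in the cellulose libraries labelled Δ*Podot1*, against 10.5, 11.1 and 5.04 FPKM in WT. On glucose it had 32.3 to 44.1 FPKM in Δ*Podot1*, against 21.6, 44.6 and 49.9 FPKM in WT. PDE_04754, annotated as ribosomal protein L40, was among the 47 by a small margin. It had 81.8, 70.4 and 131 FPKM in the cellulose libraries labelled Δ*Podot1*, against 14.6, 14.7 and 7.05 FPKM in WT, and in glucose 58.7 to 68.4 FPKM in Δ*Podot1*, against 33.3 to 50.2 FPKM in WT. All 3 cellulose libraries labelled Δ*Podot1* were above all glucose libraries for this gene, replicate 2 included.

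PDE_00474, a KEGG hit to the mitochondrial RNA helicase MSS116 that in yeast splices mitochondrial introns, had 37.4, 32.4 and 97.6 FPKM in the cellulose libraries labelled Δ*Podot1*, against 10.2, 5.43 and 1.82 FPKM in WT. The glucose libraries had 22.3 to 61.9 FPKM in Δ*Podot1*, against 15.0 to 29.9 FPKM in WT. PDE_08910, annotated as TIM17, a subunit of the translocase that carries proteins into mitochondria, had 461, 227 and 394 FPKM in the cellulose libraries labelled Δ*Podot1*, against 121, 62.7 and 39.1 FPKM in WT. In glucose it had 161 to 219 FPKM in Δ*Podot1*, against 93.9, 229 and 199 FPKM in WT. Replicates 1 and 3 were above every other library, and replicate 2 was at the upper end of the glucose range.

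Of the genes of the endoplasmic reticulum, PDE_02938, the β subunit of the SEC61 channel through which secreted proteins enter it, had 53.8, 80.7 and 81.7 FPKM in the cellulose libraries labelled Δ*Podot1*, against 14.2, 7.99 and 6.63 FPKM in WT. Its glucose levels were 88.8 to 109 FPKM in Δ*Podot1*, against 13.2, 75.9 and 77.5 FPKM in WT. PDE_09754, a KEGG hit to REEP5/6, proteins that shape tubules of the endoplasmic reticulum, had 120, 236 and 222 FPKM in the cellulose libraries labelled Δ*Podot1*, against 22.6, 18.9 and 21.0 FPKM in WT. On glucose it had 177 to 193 FPKM in Δ*Podot1*, against 47.4, 160 and 153 FPKM in WT. In both genes replicate 2 was no lower than replicate 1, and WT replicate 1 was the lowest of the glucose libraries.

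Other annotated genes had roles at the plasma membrane and in nucleotide and signal metabolism. PDE_05197, whose best match is PIL1, a core protein of the membrane furrows called eisosomes (its KEGG hit is Coq6), had 425, 310 and 409 FPKM in the cellulose libraries labelled Δ*Podot1*, against 122, 116 and 92.4 FPKM in WT. The glucose libraries had 326, 241 and 115 FPKM in Δ*Podot1*, against 159, 170 and 120 FPKM in WT. PDE_04831, whose best match is plasma membrane proteolipid 3, had 960, 457 and 748 FPKM in the cellulose libraries labelled Δ*Podot1*, against 139, 105 and 94.6 FPKM in WT. In glucose it had 508 to 960 FPKM in Δ*Podot1*, against 186, 568 and 471 FPKM in WT. Replicates 1 and 3 were above all glucose libraries for PDE_05197 but not for PDE_04831.

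PDE_01257, adenylosuccinate synthase of the path from inosine to adenosine monophosphate, had 49.8, 17.0 and 144 FPKM in the cellulose libraries labelled Δ*Podot1*, against 9.60, 14.9 and 14.2 FPKM in WT. Its glucose levels were 5.13 to 8.02 FPKM in Δ*Podot1*, against 2.90 to 5.22 FPKM in WT. All 3 cellulose libraries labelled Δ*Podot1* were above all WT libraries. PDE_09669, an inositol polyphosphate 5-phosphatase that takes a phosphate off inositol lipids or phosphates, had 133, 55.1 and 98.1 FPKM in the cellulose libraries labelled Δ*Podot1*, against 25.3, 23.1 and 25.4 FPKM in WT. On glucose it had 29.9 to 44.6 FPKM in Δ*Podot1*, against 23.3 to 41.8 FPKM in WT. PDE_05048, with a KEGG hit to the elongator subunit ELP3, belonged to the 20 and had 124, 136 and 197 FPKM in the cellulose libraries labelled Δ*Podot1*, against 18.5, 26.6 and 19.4 FPKM in WT.

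**Figure D3:**
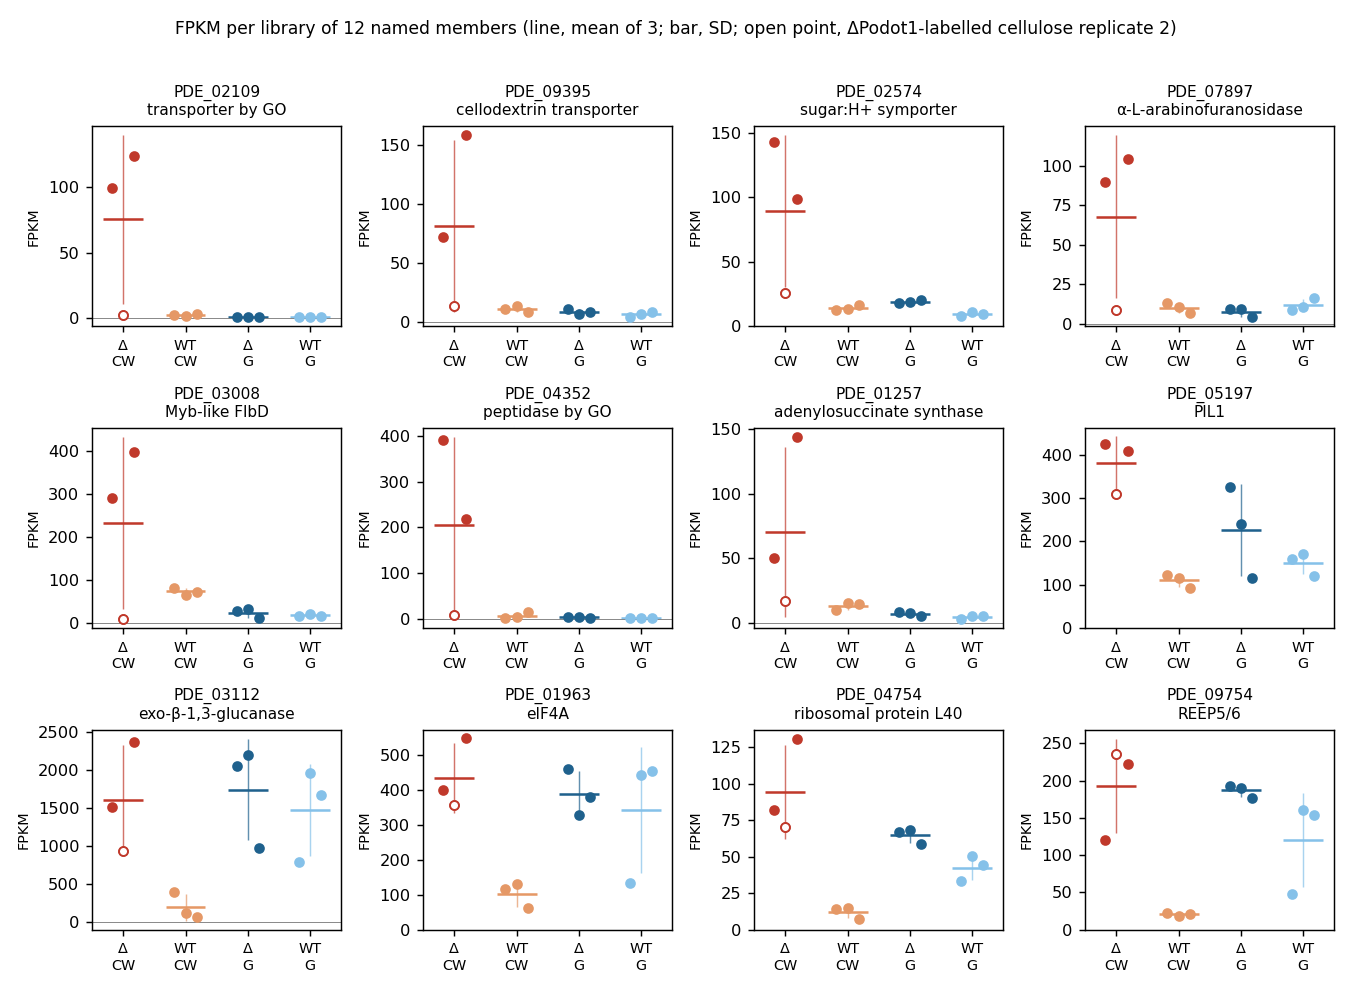
FPKM of 12 annotated genes in each library (Δ, labelled Δ*Podot1*; CW, cellulose with wheat bran; G, glucose), with the mean as a line and the SD as a bar (n = 3 per group) and replicate 2 of the cellulose libraries labelled Δ*Podot1* as an open point. In the first 7 panels the filled points of that group stand alone and the open point is far below them, and in the panels of PDE_03112, PDE_01963 and PDE_09754 WT in cellulose is the low group, for PDE_09754 with 18.9 to 22.6 FPKM.

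Function text was found for few genes. The gene tables that accompany the study annotate 1316 genes; 30 of the 67 were among them, 22 with a KEGG, GO or protein match and 8 without, and 37 were not. PDE_09084, PDE_05414, PDE_07293 and PDE_07453 were the most abundant without function text. PDE_09084 had 907, 1214 and 849 FPKM in the cellulose libraries labelled Δ*Podot1*, against 127, 117 and 81.6 FPKM in WT, and it belonged to the 20. PDE_05414 had 681, 286 and 671 FPKM in the cellulose libraries labelled Δ*Podot1*, against 90.0, 84.0 and 42.4 FPKM in WT. It exceeded its highest glucose level of 362 FPKM in replicates 1 and 3.

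PDE_07293 had 358, 265 and 345 FPKM in the cellulose libraries labelled Δ*Podot1*, against 99.0, 37.0 and 24.6 FPKM in WT, within the glucose range of 177 to 394 FPKM. PDE_07453 had 152, 20.9 and 171 FPKM in the cellulose libraries labelled Δ*Podot1*, against 29.9, 49.1 and 22.2 FPKM in WT. Replicate 2 was below all WT cellulose libraries for PDE_07453 and above them for PDE_07293.

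Among the genes with the largest distance from WT, PDE_00213 had 149, 3.14 and 91.7 FPKM in the cellulose libraries labelled Δ*Podot1*, against 6.36, 3.11 and 7.67 FPKM in WT, and at most 3.46 FPKM in glucose. PDE_06598 had 124, 29.3 and 163 FPKM in the cellulose libraries labelled Δ*Podot1*, against 17.6, 12.4 and 11.5 FPKM in WT. PDE_01736 had 39.2, 4.12 and 33.0 FPKM in the cellulose libraries labelled Δ*Podot1*, against 2.98, 0.26 and 1.59 FPKM in WT. These 3 were high in replicates 1 and 3, and the only term among them was the GO process response to stimulus of PDE_06598.

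At low levels, PDE_03435 had 19.5, 5.32 and 18.4 FPKM in the cellulose libraries labelled Δ*Podot1*, against 1.65 FPKM in WT replicate 1 and no listing in the other 2 WT libraries. PDE_00835 had 11.5, 1.93 and 7.95 FPKM in the cellulose libraries labelled Δ*Podot1*, against 0.56 FPKM in WT replicate 1 and no listing in the other 2. Their ratios rest on few reads in WT and depend on the 1 FPKM that was added. PDE_05445 had 49.4, 2.09 and 30.3 FPKM in the cellulose libraries labelled Δ*Podot1*, against 7.21, 8.52 and 9.35 FPKM in WT, and PDE_03576 had 31.8, 2.29 and 27.8 FPKM, against 8.29, 3.55 and 6.63 FPKM in WT. The 35 genes outside the rule for naming include those named only as nearest to a threshold. They were mostly of low level in WT in cellulose. In replicates 1 and 3 their median was above that of all genes, 25.5 and 24.4 FPKM. Their medians were 34.9 FPKM in replicate 1, 20.5 FPKM in replicate 2 and 31.0 FPKM in replicate 3 labelled Δ*Podot1* in cellulose, against a median WT mean of 5.35 FPKM, and in 22 of them no WT cellulose library was above 10 FPKM. The ratio of replicates 1 and 3 to WT was 3.59 to 16.1 (median 5.08), 25 belonged to the 47 and 10 to the 20, and replicate 2 was above every WT cellulose library in 33. In all, 63 of the 67 genes were listed in all 12 libraries, and gene length was 228 to 3783 bases with a median of 1364, against 1348 over all genes.

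Locus tag numbers were not used by the rule. In 4 of the 67 genes (5.97%) an adjacent tag number also belonged to the group, against 1.30% of all listed genes. In 5 (7.46%) a tag at most 2 away did, against 2.59% of all listed genes. PDE_06176 had 18.6, 2.90 and 15.3 FPKM in the cellulose libraries labelled Δ*Podot1*, against 0.43, 1.57 and 1.62 FPKM in WT. Its neighbour PDE_06177 had 67.9, 1.78 and 47.5 FPKM in the cellulose libraries labelled Δ*Podot1*, against 6.80, 4.41 and 8.33 FPKM in WT. PDE_06179 had 16.3, 8.51 and 14.0 FPKM in the cellulose libraries labelled Δ*Podot1*, against 0.82, 1.00 and 3.13 FPKM in WT. All 3 were high in replicates 1 and 3, but PDE_06178, which lies between them by number, was not, with 1.43, 4.72 and 0.57 FPKM, against 0.80, 1.72 and 0.71 FPKM in WT. PDE_06175, before them, was highest in replicate 1, with 16.1, 4.63 and 0.80 FPKM, against 0.37, 0.96 and 0 FPKM in WT.

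The other neighbouring pair did not move alike. PDE_09754, described above, overlapped its glucose levels in cellulose. PDE_09755 had 23.0, 7.65 and 34.5 FPKM in the cellulose libraries labelled Δ*Podot1*, against 4.94, 6.77 and 3.51 FPKM in WT, and its glucose libraries lay between 5.79 and 9.42 FPKM. Tag order was taken as gene order, and the distances between these genes were not measured.

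Replicate 2 labelled Δ*Podot1* in cellulose had no part in the choice, and it sits at the glucose level of the glycoside hydrolase genes with *Podot1* reads present. It was above every WT cellulose library in 55 of the 67 genes (82.1%, against 45.5% of all genes), within their range in 6 and below it in 6. It reached 3-fold over the highest WT library in 22 genes (32.8%, against 11.3% of all genes). The WT cellulose libraries are common to this comparison and to the rule, so the genes were already chosen for low values there. In 53 genes it was below both replicates 1 and 3 (79.1%, against 35.5% of all genes).

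The 2 patterns differed in this library. Of the 20 genes that overlapped glucose, replicate 2 was above WT in cellulose in 20 and 3-fold above in 14. Of the 47 genes above glucose, it was above WT in 35 and 3-fold above in 8. The 2 patterns were split by the glucose libraries, to which replicate 2 was near, so these counts are not independent of the split. The 6 genes below every WT library were PDE_02800, PDE_03008, PDE_03576, PDE_05445, PDE_06177 and PDE_07453, all of the 47. Set against Δ*Podot1* in glucose, replicate 2 was above all 3 libraries in 37 genes (55.2%, against 49.0% of all genes), within their range in 19 (28.4%, against 31.1%) and below it in 11 (16.4%, against 19.98%), which is near the shares over all genes. Across the 67 genes its Pearson correlation of log2(FPKM + 1) was 0.68 with replicate 1, 0.73 with replicate 3, 0.95 to 0.96 with Δ*Podot1* in glucose, 0.70 to 0.81 with WT in cellulose and 0.94 to 0.96 with WT in glucose. The choice of genes high in replicates 1 and 3 bears on these values. Across all genes that averaged 1 FPKM or more the correlation was 0.66 with replicate 1, 0.64 with replicate 3, 0.88 to 0.92 with Δ*Podot1* in glucose, 0.52 to 0.61 with WT in cellulose and 0.85 to 0.87 with WT in glucose. Replicate 2 was nearer to the glucose libraries of both strains than to its own group over both sets of genes, and whether its medium or its label is in error was not tested.

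**Figure D4:**
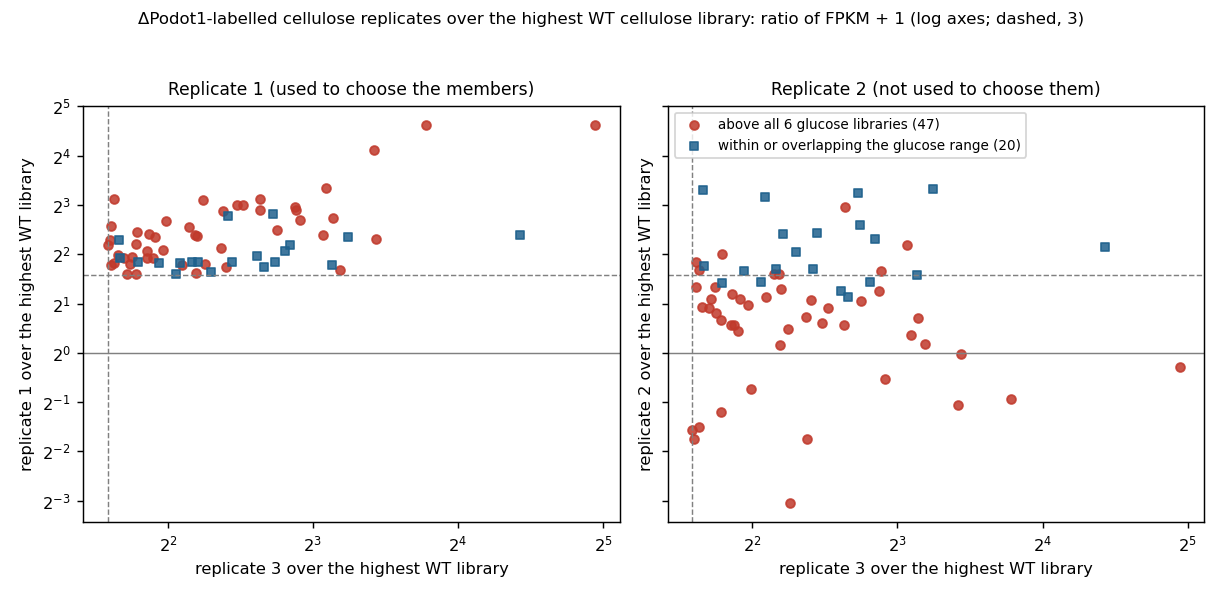
Ratio of FPKM + 1 in replicate 1 (left panel) and replicate 2 (right panel) to the highest WT cellulose library, against the same ratio for replicate 3 (log axes, 67 genes in each panel, dashed lines at 3). All points of the left panel lie beyond the dashed lines by the rule, whereas in the right panel 55 lie above 1 and 22 at or above 3.

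The same contrasts were fitted on the estimated counts of all 12 libraries with edgeR's quasi-likelihood method. Calls needed at least a 2-fold change and, after Benjamini-Hochberg adjustment, a p under 0.05, and 66 of the 67 passed the filter on low counts (PDE_00835 did not). All 3 cellulose libraries labelled Δ*Podot1* entered these fits. Against WT in cellulose, 61 of the 66 were called higher and none lower, where 14.3% of all genes tested were called higher. The log2 fold changes were 1.63 to 5.10 with a median of 2.59, and the median of all genes was 0.14. The rule chose the genes on this contrast, so nothing is read from the count. The 5 that were not called, PDE_02800, PDE_03008, PDE_03576, PDE_05445 and PDE_07453, are 5 of the 6 in which replicate 2 lay below WT.

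For Δ*Podot1* against WT in glucose, 1 of the 66 was called, and the rule again fixes this count to be small. Over all genes 8.84% were called (4.83% higher and 4.01% lower). This share depends on the fit, since more genes were called in both directions with only the glucose libraries fitted. The gene called was PDE_07606, lower by a log2 fold change of -1.21. It had 2.99, 4.15 and 3.18 FPKM in Δ*Podot1* in glucose, against 4.70, 8.88 and 8.68 FPKM in WT. In cellulose PDE_07606 had 32.7, 23.7 and 20.2 FPKM in the libraries labelled Δ*Podot1*, against 5.15, 4.42 and 3.98 FPKM in WT. Within the 2-fold limit the glucose means were not evenly placed. The ratio of Δ*Podot1* to WT was above 1 in 57 of the 67 genes (53.5% of all genes), with a median of 1.38, and all Δ*Podot1* libraries were above all WT libraries in 20 genes (29.9%, against 21.8% of all genes). WT replicate 1 was the lowest WT glucose library in 51 of the 67 genes, against 30.6% of all genes. In the edgeR fit the median log2 fold change of the genes in glucose was 0.43, with 51 of 66 above 0, and without WT replicate 1 it was 0.16, with 43 of 67 above 0.

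Between the media, 4 of the 66 genes were called higher in WT in cellulose than in WT in glucose and 24 lower, where 19.2% and 15.9% of all genes were called, with a median log2 fold change of -0.91. The 4 were PDE_02234, PDE_02800, PDE_05445 and PDE_06177. Of the 24 called lower, 19 belonged to the 20 genes that overlapped glucose and 5 to the 47. In the libraries labelled Δ*Podot1*, 27 of the 66 were called above their glucose level, where 13.4% of all genes were, and all 27 belonged to the 47. Both contrasts between the media use groups that entered the rule. The glucose libraries also split the 47 from the 20, so these counts describe the choice. Without replicate 2 in cellulose 40 of the genes were called above glucose and 1 below it. Without replicate 1 in cellulose 16 were called above it. Over all genes, calls above glucose moved likewise, from 1215 of 9088. They were 1869 of 9136 without replicate 2 and 684 of 9138 without replicate 1.

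PDE_02234 stood furthest above glucose after PDE_04352 and PDE_02109. It had 139, 12.2 and 86.3 FPKM in the cellulose libraries labelled Δ*Podot1*, against 6.51, 3.04 and 21.0 FPKM in WT, and at most 1.60 FPKM in glucose. PDE_02800 had 87.7, 5.60 and 57.7 FPKM in the cellulose libraries labelled Δ*Podot1*, against 12.5, 9.48 and 18.5 FPKM in WT, and at most 2.91 FPKM in glucose. Both were also higher in WT in cellulose than in WT in glucose, to a lower level.

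The difference between the contrasts of labelled Δ*Podot1* against WT in cellulose and in glucose was called for 8 of the 66 genes. All 8 had the larger difference in cellulose. Over all genes 0.594% were called in that direction, 1.09% in the other and 1.68% in either. The 8 were PDE_04545, PDE_04754, PDE_05048, PDE_05414, PDE_06122, PDE_06598, PDE_07606 and PDE_09628, with log2 differences of 2.39 (PDE_04754) to 3.63 (PDE_07606). All 4 groups had entered the rule, so the count describes the choice. The count depended on single libraries: 39 of 67 genes were called without replicate 2 labelled Δ*Podot1* in cellulose and 27 without WT replicate 1 in glucose, but 2 or 3 without any 1 of the WT cellulose, Δ*Podot1* glucose or other WT glucose libraries. DESeq2 called 34, and edgeR with the replicate number as a block called 3. Calls in that direction over all genes moved as well, from 54 of 9088. They were 340 of 9136 without that replicate 2 and 220 of 9269 without WT replicate 1 in glucose. DESeq2 gave 460 of 9088 and the block 20 of 9088. Without replicate 3 labelled Δ*Podot1* in cellulose they were 221 of 9267, with 10 among the 67. PDE_06122 had 33.5, 29.8 and 23.7 FPKM in the cellulose libraries labelled Δ*Podot1*, against 1.62, 2.97 and 2.31 FPKM in WT, with 8.76 to 14.7 FPKM in Δ*Podot1* in glucose, against 7.53 to 10.5 FPKM in WT. Its 3 replicates in cellulose were close to each other.

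The functional classes around these genes are given from the same gene tables, which annotate only genes that the study found changed in these libraries and so are not independent evidence of a direction. Over all genes tested, 14.3% were called higher and 10.8% lower in cellulose, and 30 of the 1316 annotated genes belonged to the group. Of 98 genes with a transport term, 4 belonged to the group, and in cellulose 56 of the 98 were called above and 6 below WT in the cellulose libraries labelled Δ*Podot1*, with a median log2 fold change of 2.17. Of 35 genes of the ribosome and translation, 3 belonged to it, and 26 were called higher and 3 lower (median 1.71). Of 55 genes whose annotation names mitochondria or the respiratory chain, 47 were called higher and 2 lower (median 2.02). The 3 that belonged to the group were PDE_00474 (MSS116), PDE_08910 (TIM17) and PDE_05197, which is there by its Coq6 hit while its best match is PIL1. Such calls were not limited to these classes. Of 33 genes of lipid metabolism, 0 belonged to the group, and 19 were called higher and 6 lower. Of 179 redox enzymes, 1 belonged to it, and 71 were called higher and 31 lower. Of 14 genes of secondary metabolism 2 were called higher and 10 lower, and of 20 peptidases 4 and 9.

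Enzymes acting on carbohydrates had more genes called below WT than above it. Of 52 such genes, 9 were called higher and 16 lower in cellulose (median -0.65), and PDE_03112 and PDE_07897 belonged to the group. Of the 10 secreted glycoside hydrolase genes, none was called higher and 3 were called lower (median -1.66), with replicate 2 at the glucose level. In glucose the transport class had 26 genes called higher and 7 lower in Δ*Podot1* than in WT, the ribosomal class 3 and 1, and the mitochondrial class 5 and none. Over all genes tested in glucose, 4.83% were called higher and 4.01% lower.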

How the data were processed

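The authors deposited, for each of the 12 libraries, estimated counts per gene, not normalized and in 0.713% of cases not whole, and FPKM, normalized for gene length and mapped reads. Their methods name HISAT and Bowtie2 on BGISEQ-500 reads, whereas the labels describe tag profiling; the program that counted is not given in the sources used here. A gene not listed in a library was taken as 0. Counts of near-identical genes are uncertain, since their reads may be shared out.

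The rule was applied to FPKM. Counts were rounded and fitted by edgeR 4.0.16 under R 4.3.3 (TMM scaling, filterByExpr, glmQLFit, glmQLFTest), with 1 mean per group over 12 libraries; 9088 genes were tested. The fit was tested on simulated data. With 3 libraries per group, calls measure the spread between these libraries.

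Members and lists were chosen with earlier results of these data known. Named by rule were the 12 most abundant of the 67 genes, the 8 furthest above WT, and the 5 highest and 5 lowest in replicate 2. Runs of neighbours and up to 4 genes per functional class were added, which left 32. The rule also gave the 3 nearest each threshold, and genes named only for that are not among the 32. Others (PDE_01257, PDE_02938, PDE_05048, PDE_05600, PDE_06122, PDE_02234, PDE_09755 and those listed by their calls) were named after their values were seen. Of these, PDE_02234 and PDE_05048 were also among the nearest to a threshold. Functions come from annotation columns of the study's gene tables; their values were not used. The reference gene table, of another strain, matched 0 locus tags, so sequences and positions were not used here. Alternatives included DESeq2 1.42.0 and limma 3.58.1 on log2(FPKM + 1).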

Additional observations from a re-analysis of the deposited data

Results flagged for a closer look

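The contrast of labelled Δ*Podot1* against WT was called different between the media by edgeR for 8 of the 66 genes tested. All 8 had the larger difference in cellulose (0.594% of all genes). The groups of this contrast had chosen the genes, so the number is a description.

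Replicate 2 labelled Δ*Podot1* in cellulose, which the choice did not use, was above every WT cellulose library in 55 of the 67 genes (45.5% of all genes). This library carried *Podot1* reads and had 218 summed FPKM of the secreted glycoside hydrolase genes, against 34018 to 40652 in WT in cellulose. The part of these mismatches in the 55 was not tested. The WT cellulose libraries had entered the rule, so the genes were already chosen for low values there. The 55 is therefore not independent of the choice.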

How the results depend on the processing

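The size of the group depended on its limits: 262 genes met a 2-fold and 19 a 5-fold limit over WT, 37 met a glucose limit of 1.5-fold, and 22 did so when replicate 2 labelled Δ*Podot1* was asked too, in place of 67. Leaving out single libraries gave 60 to 303 genes: 220 without replicate 1 and 303 without replicate 3 labelled Δ*Podot1* in cellulose, 124 without WT replicate 1 and 114 without WT replicate 3 in cellulose. Neighbouring genes numbered 22 at 2-fold and 2 at 5-fold, in place of 4. With only the groups compared, edgeR called 34 of the genes in cellulose, 4 in glucose and 3 between the media in the libraries labelled Δ*Podot1*, in place of 61, 1 and 27. Calls over all genes moved in the same directions in this setting. They fell in cellulose and between the media, and rose in glucose, for higher and for lower calls alike. The single call in glucose was lost with limma (0 with either pseudocount) and with library size in place of TMM (0, an alternative chosen after seeing the data), and was 0 to 4 without single libraries. The calls between the media in the libraries labelled Δ*Podot1* were 13 to 41 without single libraries. They were 41 without replicate 2 in cellulose, 16 without replicate 1, and 13, 14 and 17 without glucose replicates 2, 1 and 3. Over all genes, calls above glucose were 1869, 684, 653, 727 and 709 in the same order, against 1215. The interaction had 34 calls with DESeq2 and 2 to 39 without single libraries (39 without replicate 2 labelled Δ*Podot1* in cellulose, 27 without WT replicate 1 in glucose, 2 or 3 without any 1 WT cellulose, Δ*Podot1* glucose or other WT glucose library). Over all genes, interaction calls with the larger difference in cellulose rose or fell in the same settings. The cause was not tested. Library size moved the median of all genes in WT cellulose against glucose to 0.21, against 0.05. Replicate numbers did not pair the libraries (r of deviations -0.14 to 0.17, over 0.1 in 2 of 18 pairs); with the number as a block, 58 were called in cellulose, 0 in glucose and 3 for the interaction. For the 32 genes named by the rule, without those named only for a threshold, 244 alternative ratios stayed within the replicate spread, 11 moved and 0 reversed. The rule had set replicates 1 and 3 each at least 3-fold above every WT cellulose library. A reversal was therefore hardly possible, and nothing is read from the 0. Few reads limit PDE_00835 and PDE_03435.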
